A study of Homo sapiens with 36 samples.

Results

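The metallothionein genes and their regulator MTF1 were followed in RNA-seq libraries of A2780, an established line of human ovarian cancer cells. The members were set by name: MT1A, MT1E, MT1F, MT1G, MT1H, MT1M, MT1X, MT2A, MT3 and MTF1, which makes 10 of the 57820 genes in the count table, and all 10 were found there. The series compared the parental, platinum-sensitive cells (wt), an isogenic cisplatin-resistant line made by long exposure of the parental cells to cisplatin (cis), and cis SSP, a population that regrew from cis cells after serine/glycine deprivation. Cells of each kind received complete medium or medium lacking serine and glycine (-SG). Either medium was used alone or with carboplatin (carbo), a platinum drug whose dose the labels print as 6 M, giving 12 conditions of 3 libraries. Deprivation experiments used homemade RPMI and dialyzed serum, while routine culture used RPMI with serum not described as dialyzed. Which of these the sequenced cells in complete medium received is not stated. The part of serum and base medium in the -SG comparisons was not tested. The cis and cis SSP cells are 1 line each, and the 3 libraries of each condition are named technical replicates in the study's legends, so every p-value below measures the spread between such libraries only. Each library held 13074937 to 20441582 counts on genes. Levels are given as CPM, the count scaled to the size of its library, and 3 counts, the limit that a count of 0 allows, corresponded to 0.147 to 0.229 CPM. Limits of this kind cover counting error only.

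Metallothioneins are small, cysteine-rich proteins that hold zinc and copper and bind toxic metals such as cadmium through their thiols. They can also bind platinum drugs, and have long been studied for that reason in platinum-treated tumours. MTF1 is a zinc finger transcription factor that senses zinc, enters the nucleus, and binds metal response elements in the promoters of the metallothionein genes and of SLC30A1, the zinc exporter of the plasma membrane. Metallothionein genes also respond to oxidative stress and glucocorticoids.

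The metallothionein members lie together on chromosome 16 of GRCh37, between positions 56622986 and 56718108. MT2A (ENSG00000125148) spans 56642496 to 56643409 and MT1X (ENSG00000187193) spans 56716382 to 56718108, both on the forward strand, while MTF1 (ENSG00000188786) lies on chromosome 1, from 38275246 to 38325264, on the reverse strand. The 250 bases before the transcription start are shown for 3 metallothionein genes, because 2 of them (MT2A and MT1X) carry the measured signal and MT1H, with no counts at all, has the same kind of promoter. The letters came from the RefSeq promoter table (GRCh38.p14), were found unchanged in GRCh37, and read 5′ to 3′ on the strand of the gene. Capitals mark the core of the metal response element, TGCACNC or TGCGCNC, on either strand.
MT2A, chr16:56642246-56642495: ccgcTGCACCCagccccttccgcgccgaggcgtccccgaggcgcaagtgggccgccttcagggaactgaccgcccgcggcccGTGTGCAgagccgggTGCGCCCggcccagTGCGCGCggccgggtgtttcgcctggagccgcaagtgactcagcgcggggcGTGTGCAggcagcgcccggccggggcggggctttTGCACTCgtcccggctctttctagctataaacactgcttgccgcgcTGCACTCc
MT1X, chr16:56716132-56716381: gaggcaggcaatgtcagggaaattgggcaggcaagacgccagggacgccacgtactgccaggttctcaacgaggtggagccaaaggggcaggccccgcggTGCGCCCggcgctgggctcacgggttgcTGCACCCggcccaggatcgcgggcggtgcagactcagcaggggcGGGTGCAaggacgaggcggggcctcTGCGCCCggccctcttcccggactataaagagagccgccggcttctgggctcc
MT1H, chr16:56703476-56703725: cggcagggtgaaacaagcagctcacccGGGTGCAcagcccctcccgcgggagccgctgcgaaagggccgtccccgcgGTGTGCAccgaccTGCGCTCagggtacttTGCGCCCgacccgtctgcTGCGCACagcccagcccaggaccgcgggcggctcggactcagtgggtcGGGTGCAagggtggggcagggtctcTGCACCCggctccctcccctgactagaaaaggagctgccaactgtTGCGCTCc

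MT2A held 7 cores, 5 of them on its own strand, MT1X held 4 and MT1H held 8. Such windows are uncommon: of 35116 promoters of this length, 24.8% held at least 1 core, 0.37% at least 4 and 0.031% at least 7, which is 11 promoters. The window of MTF1 (chr1:38325265-38325514, reverse strand) held no core, which says only that these letters are not in it. Of the 10 members 4 had an entry in the table, and MT1A, MT1E, MT1F, MT1G, MT1M and MT3 did not. The number of cores did not follow the level, since MT1H had the most of the 3 and no counts in any library.

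**Figure D1:**
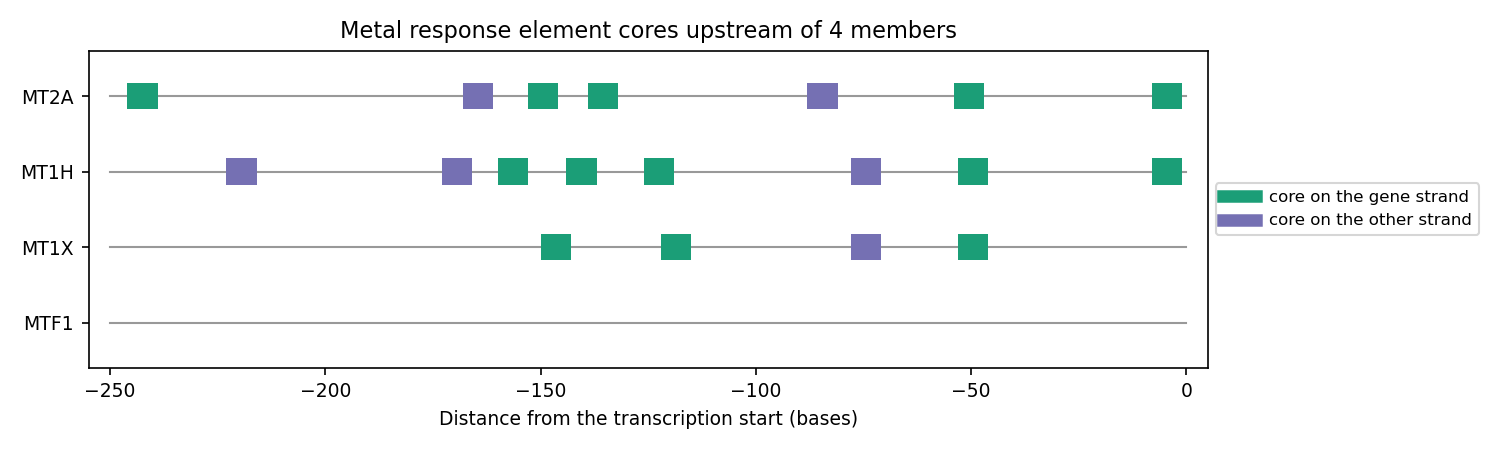
Position of metal response element cores in the 250 bases before the transcription start of MT2A, MT1H, MT1X and MTF1, in bases from the start. Green marks cores on the strand of the gene and purple those on the other strand; MT2A has 7, MT1H 8, MT1X 4 and MTF1 none.

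A library was taken to detect a gene at 10 or more counts, and a condition where all 3 of its libraries did. MT2A, MT1X and MTF1 were detected in all 12 conditions, and the other 7 members in none. MT1H, a metal-inducible isoform, had 0 counts in every library. MT1E and MT1M, which are of the same kind, had 1 count each over the 36 libraries, MT1G had 3, and MT3, the isoform best known from brain, had 7 spread over 6 libraries. Of the 65-base windows within exons, 84% were unique in the genome for MT1E, 96.6% for MT1M and at least 98.1% for each of the other 8 members. Windows across splice junctions and near matches elsewhere were not checked, and the part of lost reads in these low counts was not tested.

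MT1A and MT1F stood between these and the detected genes. MT1A had 80 counts in all, in 25 libraries, and only 1 library, of cis -SG, reached 10 counts. In cis -SG cells its counts were 11, 6 and 2, and in cis -SG carbo cells 7, 8 and 8, against 2, 2 and 3 in cis cells and 0 in all 3 wt libraries. Summed over the 12 libraries of each line, MT1A had 9 counts in wt, 58 in cis and 13 in cis SSP cells. MT1F had 48 counts, of which 17 were in cis -SG cells (5, 5 and 7) and 15 in cis -SG carbo cells (7, 5 and 3). None of its counts fell in the 12 cis SSP libraries, against 40 in the 12 cis and 8 in the 12 wt libraries. The cis cells without serine and glycine thus held the highest counts of both genes, but neither passed the filter on low counts, and no fold is given. Of 11 further metallothionein genes and pseudogenes in the table, none exceeded 4 counts in a library (MT1P1), and only MT1XP1, a pseudogene of MT1X, also passed 1.

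**Figure D2:**
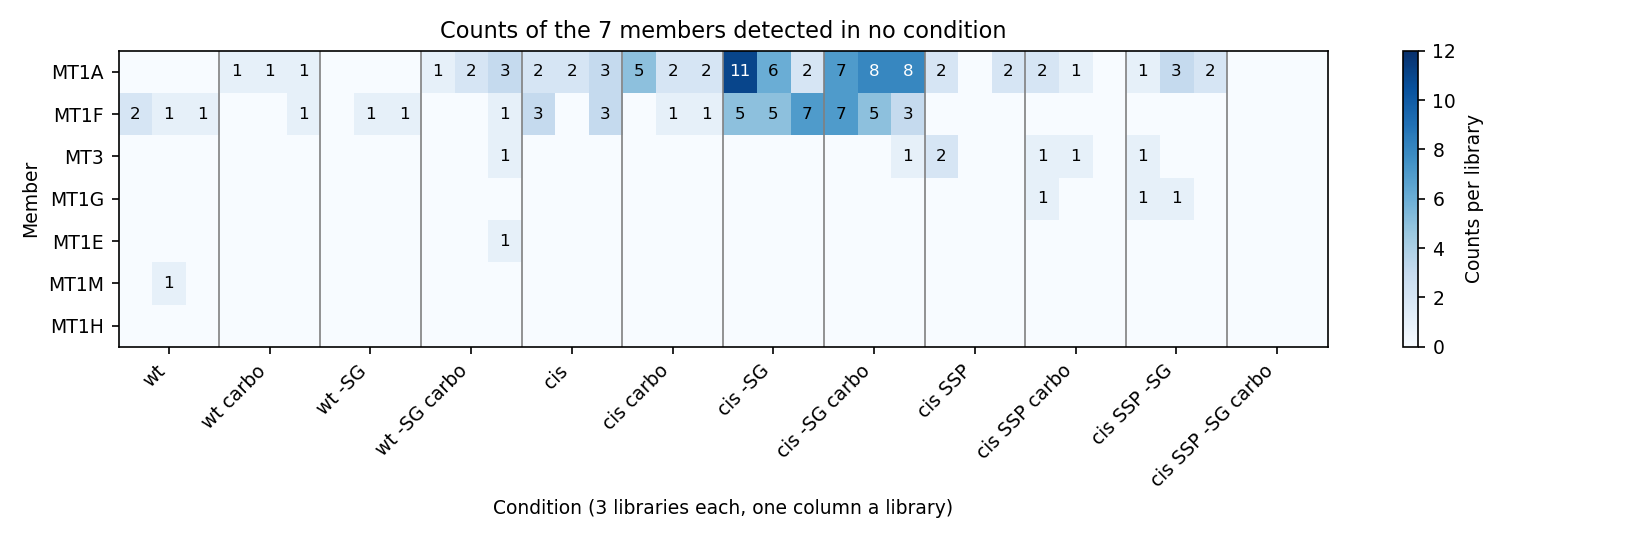
Counts of the 7 undetected members in the 36 libraries, 1 column a library and 3 columns a condition, with the count printed where it is above 0. Counts of MT1A and MT1F are highest in cis -SG and cis -SG carbo cells, where MT1A reaches 11 and MT1F 7.

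Among the detected members MT2A was the most abundant per length of its transcript. Its mean over the 36 libraries was 18.3 CPM, or 45.6 CPM per kb of its 401-base canonical transcript, against 9.51 CPM per kb for MT1X (404 bases) and 5.11 for MTF1 (7937 bases). Per kb of all annotated exon bases MT2A was still first at 19.99 CPM per kb, but MT1X at 2.23 then fell below MTF1 at 5.08, so the order of these 2 depends on the length used. MT1X shares exon bases with a long non-coding RNA on the same strand, which was listed at 0 counts in every library. A level here is a mean over the RNA of all cells of a culture, in which fewer expressing cells and less RNA per cell cannot be told apart.

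MT2A changed with line, medium and drug. Ordered by mean level, the conditions ran from 1.41 CPM in wt -SG cells to 3.01 in wt, 5.39 in cis, 7.59 in cis carbo, 8.13 in wt carbo, 11.4 in wt -SG carbo, 22.3 in cis -SG, 23.3 in cis SSP, 26.3 in cis SSP -SG, 26.8 in cis -SG carbo, 37.2 in cis SSP carbo and 46.4 CPM in cis SSP -SG carbo cells. Neighbours in this order had overlapping libraries between cis carbo and wt carbo, and from cis -SG through cis SSP and cis SSP -SG to cis -SG carbo. The other neighbouring conditions did not overlap. Without library 25 the mean of cis SSP cells was 15.3 CPM, and without library 32 that of cis SSP -SG cells was 17.97 CPM, which puts both below cis -SG cells.

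MT1X followed the line. In the 12 wt libraries its level was 0.579 to 1.11 CPM (median 0.837), in the 12 cis libraries 2.31 to 4.29 CPM (median 3.68), and in the 12 cis SSP libraries 4.85 to 13.1 CPM (median 6.28), so the 3 lines did not overlap. The same held on total counts and on DESeq2's size factors. It also held without the pair of libraries that stood apart (25 and 32, described next), where the cis SSP libraries ended at 6.94 CPM.

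MTF1 was highest in cis cells whatever the medium or drug. All 12 cis libraries lay between 49.1 and 62.3 CPM, while wt libraries ran from 18.1 to 41.8 CPM and cis SSP libraries from 17.5 to 43.5 CPM. Means of the 4 cis conditions, 53.8, 56.1, 54.9 and 58.6 CPM, differed less than the carbo and untreated wt conditions did.

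**Figure D3:**
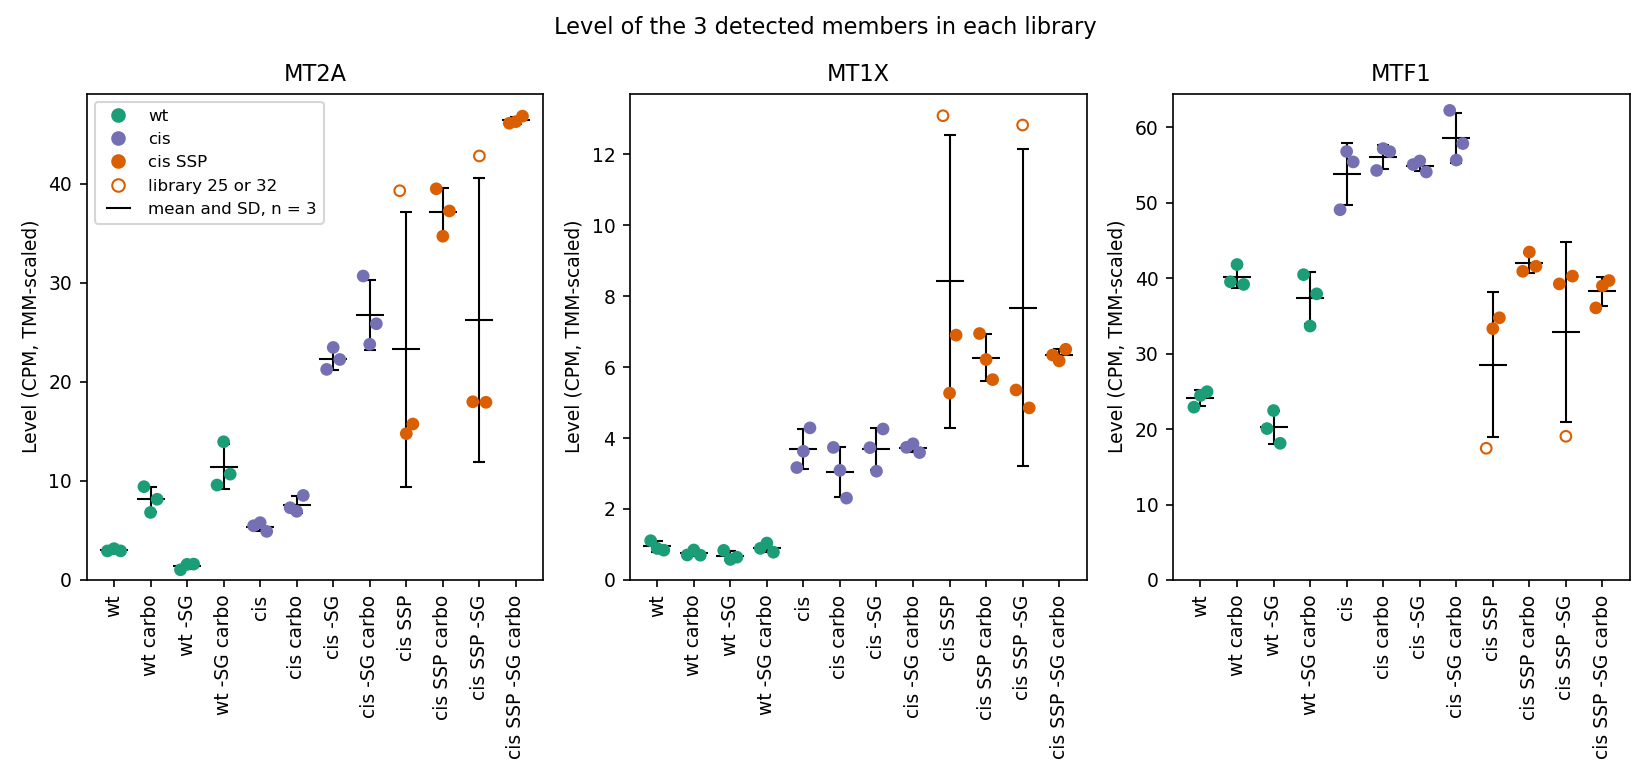
Level of MT2A, MT1X and MTF1 in CPM (scaled by TMM over the 36 libraries) in each library of the 12 conditions; bars show the mean and SD of 3 libraries. MT1X separates by line, MTF1 is highest in cis cells, and open circles, libraries 25 and 32, lie above the other cis SSP libraries of their conditions for MT2A and MT1X and below them for MTF1.

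Library 25 (cis SSP) and library 32 (cis SSP -SG) stood apart from the other libraries of their conditions along gene length. In library 25, genes under 1000 bases were a median of 0.53 higher on the log2 scale and genes over 5000 bases 0.36 lower than in the other 2 cis SSP libraries, and in library 32 the values were 0.56 and 0.33, where no other library exceeded 0.29 or 0.20 in size, the other libraries of the same 2 conditions included. These classes used all annotated exon bases, by which MT2A (914 bases) is in the short class, MTF1 (7989) in the long class and MT1X (1727) in neither. The canonical transcript of MT1X is short, at 404 bases. Each comparison of cis SSP cells is therefore given with and without these libraries, and the part of transcript length in the members' values was not tested. Library 11 (wt -SG carbo) differed from its condition in the same directions by 0.23 and 0.09, and held the highest MT2A and the lowest MTF1 of its condition. Of 8 markers of ovarian carcinoma, the epithelial CDH1 and PAX8 reached at most 6 and 10 counts in a library and EPCAM a condition mean of at most 1.64 CPM, while KRT18 reached 43.1 CPM and VIM was at 1580 to 4108 CPM. The 8 markers of blood, immune and endothelial cells in the table reached at most 8 counts, whereas the fibroblast collagen COL3A1 was expressed in all libraries, with condition means of 620 to 3593 CPM.

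Between complete and -SG medium, MT2A moved in opposite directions in wt and cis cells. In wt cells MT2A fell from 2.93, 3.16 and 2.94 CPM in complete medium to 1.03, 1.58 and 1.61 CPM, with no overlap (log2 fold change -1.10 ± 0.20 SE, edgeR adjusted p = 9.67e-05, n = 3 and 3). In cis cells it rose from 5.48, 5.79 and 4.91 CPM to 21.3, 23.5 and 22.3 CPM, again with no overlap (log2 fold change 2.08 ± 0.09 SE, a 4.21-fold increase, edgeR adjusted p = 5.29e-25). Throughout, tests are quasi-likelihood tests in edgeR, adjusted over all genes tested by the Benjamini-Hochberg method, and a gene is called at an adjusted p under 0.05. The difference between both responses, tested as an interaction, was 3.20 ± 0.21 SE on the log2 scale (95% CI 2.77 to 3.62, edgeR adjusted p = 7.77e-16), higher than 98.6% of the genes tested. The summed level of the 12 markers of other cells in the table, mostly COL3A1, was 3559 to 3665 CPM in cis and 800 to 833 CPM in cis -SG libraries, and 1589 to 1634 CPM in wt and 1462 to 1491 CPM in wt -SG libraries, and its part in these results was not tested.

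Neither MT1X response to deprivation was called. In cis cells 3.17, 3.63 and 4.29 CPM before and 3.73, 3.07 and 4.25 CPM after overlapped, with a 95% CI of the log2 fold change of -0.30 to 0.33. In wt cells 1.11, 0.888 and 0.839 CPM before and 0.834, 0.579 and 0.643 CPM after did not overlap, but the change did not pass the test (log2 fold change -0.43 ± 0.30 SE, edgeR adjusted p = 0.241).

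MTF1 itself moved little under deprivation. In wt cells it fell from 22.9, 24.5 and 24.97 CPM to 20.1, 22.5 and 18.1 CPM (log2 fold change -0.24 ± 0.07 SE, edgeR adjusted p = 0.00994), and this call was lost without the last wt library (edgeR adjusted p = 0.0593) or the last wt -SG library (edgeR adjusted p = 0.0586). In cis cells it was 49.1, 56.8 and 55.4 CPM before and 55.1, 55.6 and 54.1 CPM after, with a 95% CI of the log2 fold change of -0.04 to 0.15. Counted over the list, 2 of the 3 members tested were called lower in wt cells, where 49.2% of all genes tested were called, 1 of 3 was called higher in cis cells, where 75% were, and 2 of 3 differed in the interaction, where 54% did. A single fit over all 36 libraries did not call the falls of MT2A (edgeR adjusted p = 0.0872) and MTF1 (edgeR adjusted p = 0.413) in wt cells or the interaction of MTF1 (edgeR adjusted p = 0.525).

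Carboplatin raised MT2A in wt cells in either medium, and less in cis cells in complete medium. In complete medium wt cells went from 2.93, 3.16 and 2.94 to 9.42, 6.82 and 8.15 CPM (log2 fold change 1.46 ± 0.13 SE, edgeR adjusted p = 1.47e-26). In wt cells without serine and glycine MT2A went from 1.03, 1.58 and 1.61 to 9.59, 13.96 and 10.7 CPM, an 8.40-fold rise (log2 fold change 3.07 ± 0.21 SE, edgeR adjusted p = 1.08e-06). The groups did not overlap in either medium. An interaction term chosen after these values were seen gave a response larger by 1.61 ± 0.28 SE on the log2 scale without serine and glycine (95% CI 1.02 to 2.21, edgeR adjusted p = 4.71e-04), which the single fit over all 36 libraries did not call (edgeR adjusted p = 0.0549). The treated conditions were at 8.13 ± 1.30 and 11.4 ± 2.27 CPM (SD, n = 3), and their controls at 3.01 ± 0.131 and 1.41 ± 0.325 CPM.

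In cis cells MT2A was 5.48, 5.79 and 4.91 CPM without and 7.30, 6.93 and 8.54 CPM with carboplatin, which did not overlap (log2 fold change 0.52 ± 0.12 SE, edgeR adjusted p = 0.00218). The response in complete medium was smaller in cis than in wt cells by 0.92 ± 0.19 SE on the log2 scale (interaction -0.92, 95% CI -1.30 to -0.55, edgeR adjusted p = 1.89e-05). Without serine and glycine, cis cells went from 21.3, 23.5 and 22.3 to 30.7, 23.8 and 25.9 CPM (log2 fold change 0.35 ± 0.07 SE, edgeR adjusted p = 0.00298). One treated library, at 23.8 CPM, lay close to the highest control at 23.5 CPM. Both treated libraries below 30 CPM (23 and 24) had the highest shares of reads on no gene, 17.9% and 14.9% against at most 9.31% elsewhere. In the single fit over all 36 libraries MT2A was called for carboplatin neither in cis cells (edgeR adjusted p = 0.658) nor in cis -SG cells (edgeR adjusted p = 0.583), and the difference between the responses of cis and wt cells was not called either (edgeR adjusted p = 0.150).

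MT1X did not pass the test in any carboplatin comparison of wt or cis cells. Its levels overlapped between treated and untreated cells in all 4, and its log2 fold changes were -0.32 ± 0.31 SE in wt, 0.42 ± 0.27 SE in wt -SG, -0.25 ± 0.18 SE in cis and 0.10 ± 0.16 SE in cis -SG cells. At 10 to 20 counts per wt library, the confidence interval of MT1X in wt cells was wide, at -0.93 to 0.30 on the log2 scale in complete medium. Changes within it remain compatible with these counts.

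MTF1 rose with carboplatin in wt cells, from 22.9, 24.5 and 24.97 to 39.5, 41.8 and 39.2 CPM in complete medium (log2 fold change 0.75 ± 0.05 SE, edgeR adjusted p = 1.18e-39) and from 20.1, 22.5 and 18.1 to 40.5, 33.7 and 37.9 CPM in -SG medium (log2 fold change 0.91 ± 0.10 SE, edgeR adjusted p = 2.63e-05). In cis cells it was 54.3, 57.2 and 56.8 CPM after carboplatin, overlapping the untreated libraries (log2 fold change 0.08 ± 0.05 SE, 95% CI -0.02 to 0.19, edgeR adjusted p = 0.275). In cis -SG cells it rose slightly, to 62.3, 55.7 and 57.9 CPM (log2 fold change 0.18 ± 0.04 SE, edgeR adjusted p = 0.0056). This call was made neither by the single fit (edgeR adjusted p = 0.674) nor by DESeq2's Wald test. Relative to wt cells, the response of MTF1 in cis cells was smaller by 0.66 ± 0.07 SE on the log2 scale (interaction -0.66, edgeR adjusted p = 9.78e-12).

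Counted over the list, carboplatin raised 2 of 3 tested members in wt cells, where 77.8% of all genes tested were called, and 2 of 3 in wt -SG cells, where 68.9% were. It raised 1 of 3 in cis cells, where 20.1% of genes were called, and 2 of 3 in cis -SG cells, where 22.5% were. The carboplatin responses of cis and wt cells differed for 2 of 3 members, with 57.6% of all genes called, and those of wt cells in the 2 media differed for 1 of 3, with 27.7% called. Cell markers moved in the same comparisons. In wt cells COL1A1 went from 162.9 to 855 CPM with carboplatin and the summed markers of other cells from 1589 to 1634 CPM up to 1945 to 1967 CPM, while in cis cells that sum went from 3559 to 3665 CPM down to 2569 to 2627 CPM. Of 5 carcinoma markers tested, 4 rose in wt cells (median 3.03) and 3 in wt -SG cells (median 4.04), keratins mostly, and none fell. Their part in the results was not tested. Comparisons that use the same untreated libraries are set side by side and are not independent.

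Between the untreated lines, all 3 tested members were higher in cis than in wt cells, in a comparison in which 78.5% of genes were called in either direction. MT1X rose most, from 1.11, 0.888 and 0.839 to 3.17, 3.63 and 4.29 CPM (log2 fold change 1.94 ± 0.21 SE, 3.83-fold, edgeR adjusted p = 3.34e-11). MTF1 was next at 1.13 ± 0.06 SE on the log2 scale (edgeR adjusted p = 2.87e-22), followed by MT2A at 0.81 ± 0.14 SE (edgeR adjusted p = 2.39e-06), which was not called in a single fit over all 36 libraries (0.83, edgeR adjusted p = 0.0527). The cis and wt libraries did not overlap for any of the 3 genes. The share of all genes tested that separate in this way was not counted.

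**Figure D4:**
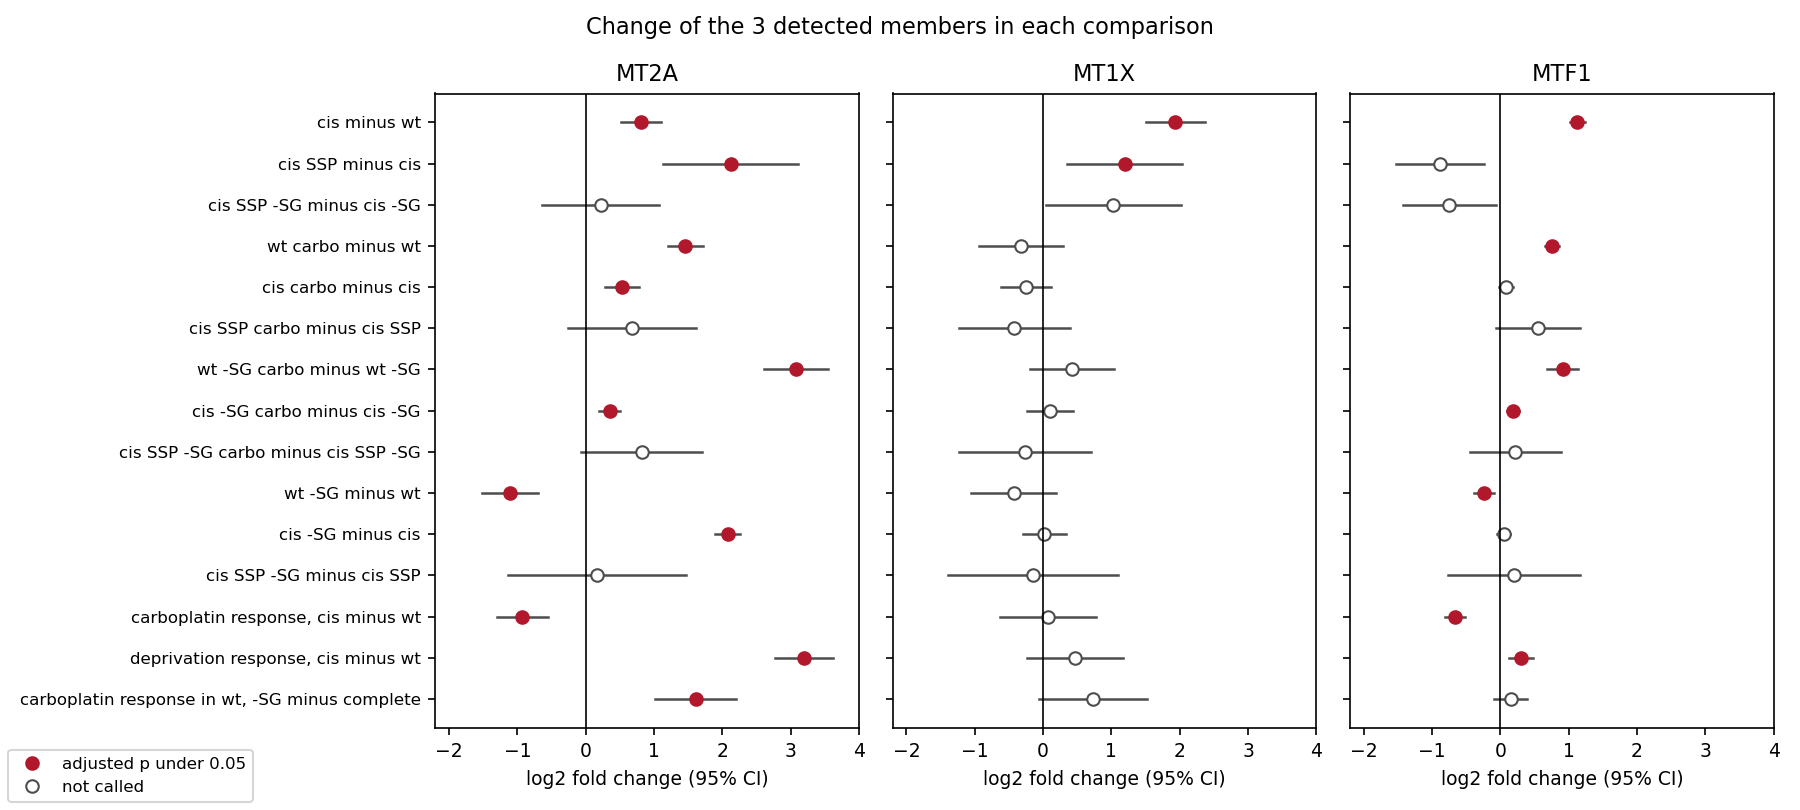
Log2 fold change with its 95% confidence interval for MT2A, MT1X and MTF1 in 12 comparisons of conditions and 3 interaction terms, with filled red points for an edgeR adjusted p under 0.05. MT2A is called in 11 of the 15, from -1.10 for deprivation in wt cells to 3.20 for the difference between the cis and wt responses to deprivation, and MT1X in 2.

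Against cis cells in complete medium, cis SSP cells had more of both detected metallothioneins and less MTF1. MT2A was 39.3, 14.8 and 15.8 CPM in cis SSP against 5.48, 5.79 and 4.91 CPM in cis cells, with library 25 the highest and no overlap (log2 fold change 2.12 ± 0.41 SE, edgeR adjusted p = 0.0112). Without library 25 the log2 fold change was 1.54 ± 0.11 SE (edgeR adjusted p = 1.61e-14). The call was lost without any 1 of the 3 cis libraries, at edgeR adjusted p of 0.0527 to 0.0606 and log2 fold changes of 2.07 to 2.19. MT1X was 13.1, 5.27 and 6.90 CPM in cis SSP cells (log2 fold change 1.19 ± 0.35 SE, edgeR adjusted p = 0.0458), and 0.76 ± 0.16 SE without library 25 (edgeR adjusted p = 8.80e-05). This call too was lost without any 1 cis library, or without the last cis SSP library, at edgeR adjusted p of 0.0664 to 0.152. MTF1 was 17.5, 33.3 and 34.8 CPM against 49.1, 56.8 and 55.4 CPM in cis cells (log2 fold change -0.88 ± 0.27 SE, edgeR adjusted p = 0.0504), and passed the test without library 25 (-0.62 ± 0.06 SE, edgeR adjusted p = 9.98e-11). So 2 of 3 members were called with all libraries, when 29.1% of genes were, and 3 of 3 without library 25, when 65.4% were. Of 4 markers of other cells tested, 3 were higher in cis SSP cells (median 2.01, 29.1% of genes called), the fibroblast gene DCN most (5.25 ± 0.27 SE). In -SG medium 4 of 4 were higher (median 1.84, 44.8% of genes called). Their summed level was 3108 to 3911 CPM in cis SSP, 2421 to 3086 CPM in cis SSP -SG, 3559 to 3665 CPM in cis and 800 to 833 CPM in cis -SG libraries, and their part in the results was not tested.

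In -SG medium no member was called between cis SSP and cis cells with all libraries, although 44.8% of genes were. MT2A was 17.998, 42.8 and 17.9 CPM in cis SSP -SG and 21.3, 23.5 and 22.3 CPM in cis -SG cells, and its direction turned with library 32: the log2 fold change was 0.22 ± 0.35 SE (edgeR adjusted p = 0.647) with it and -0.32 ± 0.07 SE (edgeR adjusted p = 1.67e-04) without it. MT1X was 5.35, 12.8 and 4.85 CPM against 3.73, 3.07 and 4.25 CPM, which did not overlap, and its log2 fold change was 1.03 ± 0.41 SE (edgeR adjusted p = 0.0844), and 0.46 ± 0.16 SE without library 32 (edgeR adjusted p = 0.0074). MTF1 was 39.3, 19.05 and 40.3 CPM against 55.1, 55.6 and 54.1 CPM, again with no overlap, and its log2 fold change was -0.74 ± 0.28 SE (edgeR adjusted p = 0.0719), and -0.47 ± 0.05 SE without library 32 (edgeR adjusted p = 1.32e-11). Without that library 75.5% of all genes were called.

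Within cis SSP cells no member was called with all libraries for carboplatin in complete medium (2.72% of genes called), carboplatin in -SG medium (1.47%) or deprivation (0.0218%, or 3 of 13736 genes). MT2A was nonetheless 39.5, 34.7 and 37.3 CPM in cis SSP carbo and 46.1, 46.3 and 46.8 CPM in cis SSP -SG carbo cells. The second of these conditions lay above all 3 of its controls and the first above only the pair without library 25. The log2 fold changes were 0.68 ± 0.39 SE (edgeR adjusted p = 0.432) and 0.82 ± 0.37 SE (edgeR adjusted p = 0.358). Without library 25 or 32 they were 1.28 ± 0.07 SE (edgeR adjusted p = 9.50e-14) and 1.39 ± 0.06 SE (edgeR adjusted p = 6.58e-13), where 41.2% and 41.1% of genes were called. MTF1 with carboplatin in complete medium, 40.9, 43.5 and 41.6 CPM, did not overlap its controls at 17.5, 33.3 and 34.8 CPM (log2 fold change 0.55 ± 0.26 SE, edgeR adjusted p = 0.347), and was called without library 25 (0.30 ± 0.05 SE, edgeR adjusted p = 7.09e-05) and in a single fit over all 36 libraries. MT1X was not called in either comparison, with or without these libraries. Deprivation of cis SSP cells gave 0.23 ± 0.09 SE for MT2A (edgeR adjusted p = 0.0431) and 0.21 ± 0.06 SE for MTF1 (edgeR adjusted p = 0.00609) without both libraries, when 35.9% of genes were called. The 95% CI for MT2A was then 0.05 to 0.40 on the log2 scale. The difference between the responses of cis SSP and cis cells to deprivation was not tested.

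**Figure D5:**
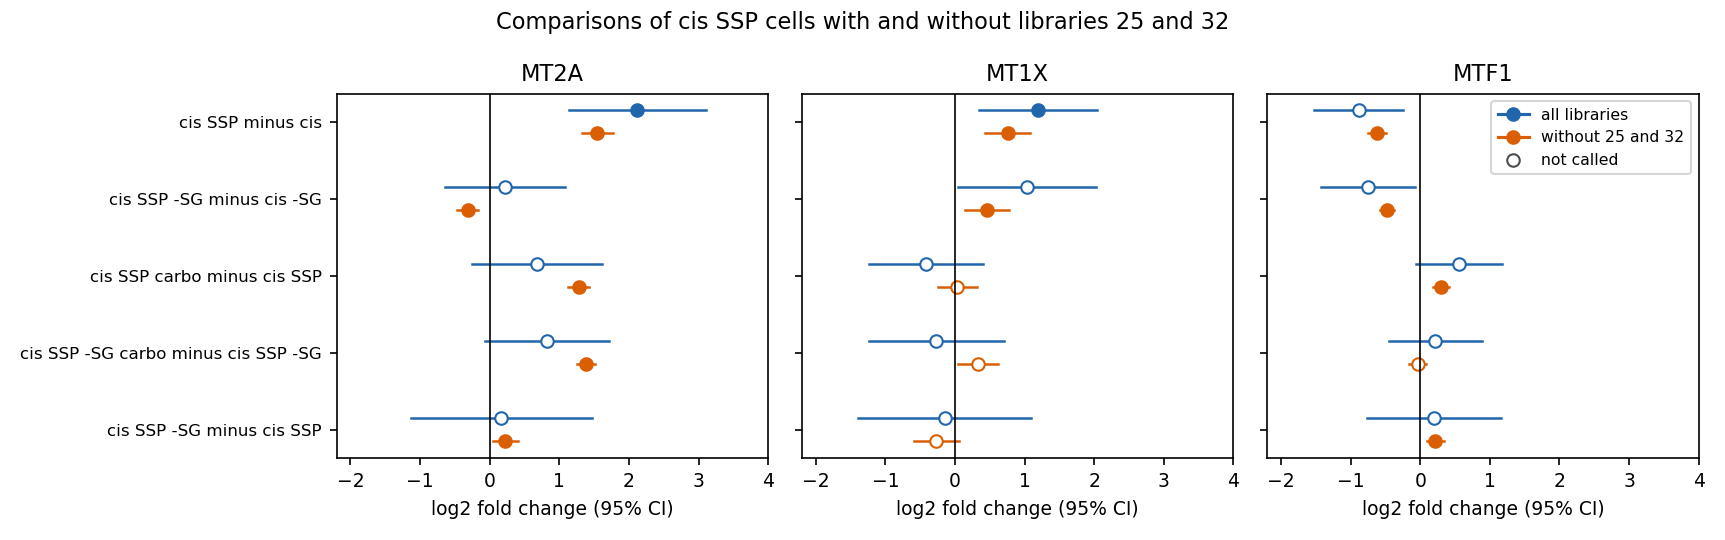
Log2 fold change and 95% confidence interval of MT2A, MT1X and MTF1 in the 5 comparisons of cis SSP cells, with all libraries (blue) and without libraries 25 and 32 (orange); open points were not called. Intervals narrow without these libraries, and MT2A in -SG medium moves from 0.22 to -0.32.

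Other genes of zinc handling were counted from lists. SLC30A1, which shares MTF1 as its regulator by background knowledge, was called in the same direction as MT2A in cis against wt cells (log2 fold change 1.59 ± 0.04 SE) and with carboplatin in wt (1.28 ± 0.04 SE), wt -SG (1.61 ± 0.06 SE) and cis cells (0.35 ± 0.03 SE). With carboplatin in cis -SG cells, where MT2A was called higher, SLC30A1 was not called (0.02 ± 0.04 SE, edgeR adjusted p = 0.746). It also fell in wt cells (-0.33 ± 0.06 SE) and rose in cis cells (0.41 ± 0.04 SE) under deprivation, and each of the changes called up to here had an edgeR adjusted p of at most 4.94e-05. The responses of cis and wt cells differed for SLC30A1 by -0.92 ± 0.06 SE for carboplatin and 0.76 ± 0.06 SE for deprivation. Unlike MT2A it did not pass the test in cis SSP against cis cells, where it was -0.15 ± 0.12 SE, and in -SG medium it was lower (-0.65 ± 0.11 SE, edgeR adjusted p = 0.00484). Without library 25 or 32 these values were -0.04 ± 0.04 SE, again not called, and -0.56 ± 0.04 SE, again called. The exporters as a list did not move one way: of 8 tested, 4 were called higher and 4 lower in cis against wt cells (median -0.02 on the log2 scale, beside -0.00407 over all genes, 78.5% called), and 3 rose and 3 fell with carboplatin in wt cells (77.8% called). SLC30A8, the exporter of insulin granules, was the lowest of them in cis against wt cells at -6.54 ± 0.40 SE. It reached 10 counts in only 12 libraries. Its condition means ran from 0.018 CPM, under the limit of 3 counts, to 4.19 CPM in wt cells, so the size of this fold is uncertain. With deprivation 5 of 7 exporters rose in cis cells, SLC30A3 most (0.99 ± 0.13 SE, 75% of genes called), and 2 rose and 2 fell in wt cells (49.2% called).

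Of 11 zinc importers (SLC39 genes) tested, 8 were higher and 2 lower in cis against wt cells (median 0.39, 78.5% of all genes called), led by SLC39A4, an intestinal zinc importer, at 1.497 ± 0.17 SE on the log2 scale. In cis cells 3 rose and 6 fell under deprivation (median -0.34, beside 0.01 over all genes, 75% called), and 4 rose and 5 fell with carboplatin in wt cells (77.8% called). In cis SSP against cis cells 4 of 11 importers were called lower and none higher (median -0.15, 29.1% of genes called), with SLC39A8, which carries zinc and manganese, the lowest at -2.24 ± 0.26 SE. Without library 25 the counts were 6 lower and 3 higher (median -0.35, 65.4% called), and SLC39A8 was at -2.02 ± 0.29 SE.

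Of 9 genes of metal and heat stress, 6 or 7 were tested in each comparison. HMOX1, heme oxygenase 1, rose with carboplatin from 29.7 to 866 CPM in wt cells (log2 fold change 4.88 ± 0.03 SE) and from 30.9 to 1058 CPM in wt -SG cells (5.13 ± 0.08 SE), and with deprivation from 46.1 to 317 CPM in cis cells (2.81 ± 0.03 SE). In wt cells it was 0.07 ± 0.05 SE with deprivation and not called. The other listed genes are heat shock genes mostly. With carboplatin 5 of 7 rose and 1 fell in wt cells (median 0.37, 77.8% of all genes called) and 6 of 6 rose in wt -SG cells (median 0.91, 68.9% called). In cis against wt cells 5 of 7 were higher and 1 lower (median 0.24, 78.5% called), and under deprivation in wt cells 5 of 6 fell (median -0.45, 49.2% called). Under deprivation in cis cells, where MT2A rose, HMOX1 rose while 4 of 7 fell (median -0.25, 75% called), HSPB1 most (-1.34). HSPA1A and HSPA1B are near-identical copies whose reads cannot be told apart reliably. Of 5 other factors linked to metallothionein promoters 4 were tested. They were called 1 up and 1 down in cis against wt cells, with MTF2, a Polycomb-associated protein distinct from MTF1, at -1.87 ± 0.04 SE. With carboplatin in wt cells 3 of 4 rose and 1 fell, led by NFE2L2, the oxidative stress regulator, at 1.30 ± 0.03 SE.

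Among the genes whose condition means followed MT2A most closely were GPAT4 (Pearson r = 0.96), CD83 (0.96), S100A11 (0.95) and RFTN1 (0.95), over 12 condition means of log2(CPM + 0.5) and among 10752 genes of at least 5 CPM. For MTF1 they were MED17 (0.99), IL1R1 (0.98), EGR2 (0.98), DERL1 (0.98) and GPR137B (0.97). The points share the line and the libraries, so these values describe the pattern only, and 1 gene of each 5 was also among the 5 closest by Spearman's rho. Between members, MT2A and MT1X had r = 0.78 (rho = 0.71), MT2A and MTF1 r = 0.44 (rho = 0.36), and MT1X and MTF1 r = 0.31 (rho = 0.12), over the same 12 means.

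Protein-coding genes within 1 Mb of the metallothionein cluster, 29 in number, were counted in the same way. In cis against wt cells 8 of 18 tested were called higher and 5 lower (median 0.05, 78.5% of all genes called). With deprivation in cis cells 6 of 19 rose and 9 fell (median -0.05, 75% called), and with carboplatin in wt cells 10 of 20 rose and 9 fell (77.8% called). In cis SSP against cis cells 5 of 18 were higher and none lower (median 0.11, 29.1% called), and without library 25 the counts were 8 and 4 (median 0.04, 65.4% called). In -SG medium 6 of 19 were higher and 2 lower (median 0.25, 44.8% called), or 13 and 3 without library 32 (median 0.20, 75.5% called).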

How the data were processed

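RNA-seq was available for 36 libraries of A2780 cells, 3 for each of 12 conditions, grouped by the labels. The authors deposited raw counts per gene: STAR placed single-end 65-base reads on GRCh37.p13, and these were converted with SAMtools and counted at exons with HTSeq and GENCODE v19, and the methods name DESeq and DESeq2. The strand setting is not given in the sources used here. The 3 table rows that name no gene, with 4.21% to 17.9% of reads on no feature, were left out. Symbols came from a GENCODE annotation lifted to GRCh37.

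Counts were tested with edgeR 4.0.16 in R 4.3.3 (TMM, filterByExpr, estimateDisp, glmQLFit robust, glmQLFTest) on the libraries of the conditions compared, with Benjamini-Hochberg adjustment over all genes tested. The standard error was the absolute log2 fold change divided by the square root of F. CPM were scaled by TMM over the 36 libraries. Libraries of a condition differed by more than sampling noise (mean chi-square 1.20 to 123 in 36 pairs), and each was counted once. On simulated counts with 200 genes changed by 1 on the log2 scale, 195 were recovered for wt carbo against wt (7 false calls of 14516 genes), 148 for cis SSP against cis (5 of 13707), and 184 for the deprivation interaction (8 of 14979). Changes of 0.5 were recovered for 166, 6 and 155 of 200 genes. The simulation gave all genes of a comparison the same dispersion, changed only genes above a minimum expected count, and held no library shifted along gene length. Recovery was therefore not measured for MT1X at its wt counts or for libraries that stand apart in that way.

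The members, the lists (zinc exporters and importers, stress genes, other metallothionein loci, other regulators, ovarian carcinoma and other cell markers, neighbouring genes) and the comparisons were chosen with earlier results of these data known. Named genes were the members, at most 2 called genes of each list and direction in a comparison, and the 5 genes most like MT2A and MTF1, of which 1 is not reported here. Metal response element cores were searched on both strands. Alternatives were DESeq2's size factors, total counts without TMM, no filter, a minimum of 10 counts in all libraries, one fit over 36 libraries, DESeq2 1.42.0 (Wald test), each library left out, and libraries 25 and 32 left out. The carboplatin interaction within wt cells, the fit without libraries 23 and 24, and the list counts without libraries 25 and 32 were added after seeing the data. Python 3.11.15 with pandas 2.3.3 served for the tables.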

Additional observations from a re-analysis of the deposited data

Results flagged for a closer look

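Each result here was picked out because the effect of a treatment differed between groups by an interaction test (edgeR, quasi-likelihood). The response of MT2A to carboplatin differed between cis and wt cells by -0.92 on the log2 scale (edgeR adjusted p = 1.89e-05), with every treated library above every control in both lines. For MTF1 the same difference was -0.66 (edgeR adjusted p = 9.78e-12). The response to deprivation differed between cis and wt cells by 3.20 for MT2A (edgeR adjusted p = 7.77e-16), where all 3 cis -SG libraries lay above and all 3 wt -SG libraries below their controls, and by 0.30 for MTF1 (edgeR adjusted p = 0.00322). In wt cells the carboplatin response of MT2A was larger in -SG than in complete medium by 1.61 (edgeR adjusted p = 4.71e-04), a comparison chosen after the data were seen.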

How the results depend on the processing

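No alternative turned the direction of a member called in the main fit. Of 122 refitted fold changes of such members, other than single left-out libraries, 111 stayed called, and of 150 with 1 library left out 141 did. Members not called in the main fit were not part of these counts. Among them, MT2A in cis SSP -SG against cis -SG cells turned from 0.22 to -0.32 on the log2 scale without library 32. The single fit over all 36 libraries lost MT2A in cis against wt cells (2 members called), and called 0 members for carboplatin in cis and in cis -SG cells, for deprivation in wt cells and for the carboplatin interaction within wt cells, 1 each for the carboplatin and deprivation interactions of cis and wt, 1 each for carboplatin in cis SSP and cis SSP -SG cells, and 2 for cis SSP -SG against cis -SG. The cause was not tested. In cis against wt cells that fit called 9515 of 16677 genes. DESeq2 called 1 member (MT2A, not MTF1) for carboplatin in cis -SG cells and 3 (MT1F, MT1X, MTF1) for cis SSP -SG against cis -SG, with 6971 of 29245 genes called there. No filter gave 1 (MT1F) in that comparison, with 6528 of 29245 genes called. It gave 4 in cis against wt cells, MT1A included, with 12656 of 29390 genes called. A minimum of 10 counts in every library left 1 for cis SSP against cis (3287 of 12362 genes called), since MT1X reached an edgeR adjusted p of 0.051. Deprivation in cis SSP cells had 2 members called without both libraries 25 and 32. With single libraries left out, the members called ranged from 0 to 3 for cis SSP against cis (1995 to 9262 of all genes called) and for cis SSP -SG against cis -SG (4011 to 11125). They ranged from 0 to 2 for carboplatin in cis SSP (9 to 5835 genes) and 0 to 1 in cis SSP -SG (0 to 5679). For deprivation in wt cells 1 to 2 were called (6087 to 7001 genes). Left-out fits assume that a remaining pair varies like the other group. The fit without libraries 23 and 24 keeps 1 treated library of cis -SG carbo, so its spread comes from the 3 controls alone. Over all genes, the single fit called 7979 against 3990 (cis SSP against cis), 9814 against 6421 (cis SSP -SG against cis -SG), 401 against 2702 (carboplatin in cis), 3090 against 377 (in cis SSP), 1141 against 3253 (in cis -SG), 2860 against 199 (in cis SSP -SG), 2821 against 7021 (deprivation in wt), 1530 against 3 (in cis SSP), and 5240 against 8807, 4880 against 8321 and 1535 against 4219 for the 3 interactions. DESeq2 called 1349, 722, 2162 and 576 genes for carboplatin in cis, cis SSP, cis -SG and cis SSP -SG cells, and 105 for deprivation in cis SSP cells, where total counts gave 1, no filter 5 and leaving out both libraries 4996. On total counts the share of calls that were higher moved from 72.4% to 60.3% for carboplatin in cis SSP and from 48.4% to 61.1% in cis -SG cells. The median over all genes moved by more than 0.1 on the log2 scale for carboplatin in wt -SG cells (0.13 with no filter, 0.15 with DESeq2) and in cis -SG cells (0.13 with DESeq2). Of 72 levels, 10 moved by over 1 SD on the other scales. No paired analysis was possible because no label pairs libraries across conditions. The 10 to 20 counts of MT1X in wt libraries and the low counts of 7 members limit what could be detected.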
